A study of Mus musculus with 19 samples.

Results

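The miR-148 and miR-152 family consists in mouse of 3 microRNA (miRNA) genes, Mir148a, Mir148b and Mir152. Its members were chosen by name after their levels in these sperm libraries were known, so their levels and ranks are given as a description. A read belonged to the family when it was 20-24 nt long and matched 1 of the 3 hairpins in the sense direction with at most 1 mismatch, better than or as well as any other hairpin. The 3 hairpins are among 2202 annotated miRNA hairpins and took 4465845 of the 26692991 reads of that length on 638 hairpins whose reads had the length of a miRNA. These reads comprised 967 of 62975 distinct sequences that matched any hairpin.

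The libraries came from sperm of wild-type C57BL/6J male mice, exposed from 8 weeks of age for 4 weeks to dicyclohexyl phthalate (DCHP), a plasticizer, by oral gavage, or to the corn oil vehicle alone. Sperm RNA of both exposure groups was sequenced by traditional small RNA-seq and by PANDORA-seq, in which RNA is treated with T4 polynucleotide kinase and the demethylase AlkB so that fragments with blocked ends or methylated bases can be read. There were 4 PANDORA-seq control, 5 PANDORA-seq DCHP, 5 traditional control and 5 traditional DCHP libraries. Replicates of a group are mice per the study, and whether libraries of the 2 methods come from the same mice is not given by the labels. The sample titles set these groups, while the treatment field names the gavage with DCHP for every sample, the controls included. Sperm came from the cauda epididymis and was cleared of somatic cells by lysis.

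A miRNA is cut from the stem of a hairpin precursor, which leaves a 5p and a 3p strand, and usually a single strand is kept in an Argonaute protein. Bases 2 to 8 of that strand, the seed, set most of its pairing with messenger RNAs, so miRNAs with the same seed are grouped as a family. The miR-148 and miR-152 family is known for repressing Dnmt1, the maintenance DNA methyltransferase, and is abundant in liver and in many epithelia. In the mature sequences below, from RefSeq (GRCm38.p6), capitals mark the seed. They are shown because the 3p strands share 1 seed and the 5p strands do not.

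mmu-miR-148a-3p: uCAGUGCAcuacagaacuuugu
mmu-miR-148b-3p: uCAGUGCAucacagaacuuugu
mmu-miR-152-3p: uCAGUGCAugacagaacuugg
mmu-miR-148a-5p: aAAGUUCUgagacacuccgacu
mmu-miR-148b-5p: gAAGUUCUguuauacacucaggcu
mmu-miR-152-5p: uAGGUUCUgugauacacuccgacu

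Among 1679 mature mouse miRNAs in the same table, the seed of the 3p strands occurred in these 3 alone. The 5p seed was common to miR-148a and miR-148b, and that of miR-152-5p occurred once. Counted from the 5′ end of the 3p strand, miR-148a differed from miR-148b by C9U and U10C. miR-148a differed from miR-152 by C9U, U10G and U20G, and miR-148b from miR-152 by C10G and U20G. The members can thus be told apart by 2 or 3 bases outside the seed, which bears on how reads are assigned to them.

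The hairpins below carry both mature strands in capitals and show that the 3p strand lies at the same side of each loop. Their sequences were identical in RefSeq and in the GENCODE annotation used for matching.

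Mir148a: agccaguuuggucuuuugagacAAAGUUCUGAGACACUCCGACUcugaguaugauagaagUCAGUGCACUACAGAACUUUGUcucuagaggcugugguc
Mir148b: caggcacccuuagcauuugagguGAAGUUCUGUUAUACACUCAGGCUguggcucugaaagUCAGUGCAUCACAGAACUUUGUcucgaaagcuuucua
Mir152: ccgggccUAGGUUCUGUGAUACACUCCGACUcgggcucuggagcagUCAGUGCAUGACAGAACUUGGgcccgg

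Mir148a (ENSMUSG00000065505) lies at chr6:51269812-51269910 on the minus strand (GRCm38), with no gene annotated over it. Mir148b (ENSMUSG00000065560) lies at chr15:103285125-103285221 on the plus strand, in an intron of Copz1. Mir152 (ENSMUSG00000065515) lies at chr11:96850393-96850465 on the plus strand, in an intron of Copz2. Both hosts encode zeta subunits of the COPI coat, which moves vesicles from the Golgi, and neither hairpin overlapped an exon.

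The depth behind the family differed between the methods. PANDORA-seq libraries held 6940 to 48437 reads on the 638 miRNA-like hairpins, and traditional libraries held 972198 to 8167744. Levels are therefore given as reads per 1000000 of these miRNA-like reads (RPM) unless stated otherwise, and intervals cover counting error alone. The traditional control 2 library stood apart, with 8167744 miRNA-like reads, 15.7% of its total. Its Mir122 level of 430728 RPM was the highest of all libraries, and the other traditional controls ran from 19020 to 239085 RPM. Whether Mir122 bears on the family's share there was not tested. The family's share, the ratios between the 3p arms and the fitted changes of these arms in the comparisons that use this library are also given without it.

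The family made up 17.6% ± 4.75 (SD, n = 5) of miRNA-like reads in traditional control sperm and 19.6% ± 3.01 (SD, n = 5) in traditional DCHP sperm. Control replicate 2 stood at 9.24%, and the other 4 controls at a mean of 19.7% ± 0.957 (SD, n = 4), so without it the control mean lay above the DCHP mean. In PANDORA-seq libraries it made up 11.9% ± 5.69 (SD, n = 4) in control and 16.4% ± 6.43 (SD, n = 5) in DCHP sperm. Nearly all of it was Mir148a-3p, which ranked between 1 and 3 among the arms of miRNA-like hairpins in each of the 19 libraries. It ranked first in 3 of 5 traditional control, 4 of 5 traditional DCHP, 1 of 4 PANDORA-seq control and 3 of 5 PANDORA-seq DCHP libraries. The 3p arms are taken first.

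**Figure D1:**
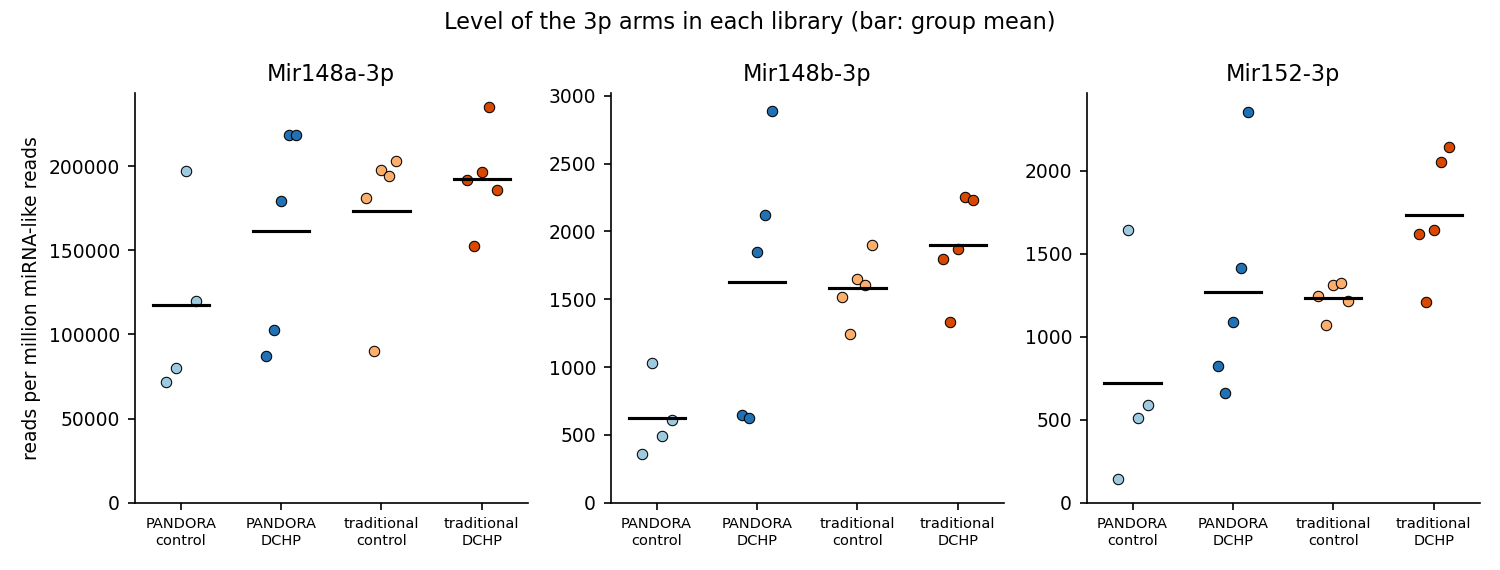
Level of each 3p arm (y axis, RPM of miRNA-like reads, from 0) in every library of the 4 groups (points), with the group mean (bar). Each arm has its own axis scale, and the PANDORA-seq control libraries hold the lowest group mean for each arm.

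In traditional control replicates 1 to 5, Mir148a-3p stood at 180769, 89928, 197638, 193987 and 202925 RPM. Replicate 2 lay apart below the others, which spanned 180769 to 202925. In traditional DCHP replicates 1 to 5 it stood at 191423, 152248, 196717, 234910 and 185993 RPM, so the groups overlapped. In PANDORA-seq control replicates 1 to 4 the level was 71974, 79924, 196778 and 119941 RPM. In PANDORA-seq DCHP replicates 1 to 5 it was 87198, 102700, 179151, 218632 and 218575 RPM, again overlapping the controls. These PANDORA-seq levels rested on 500 to 10587 reads a library, and the traditional levels on 148016 to 734506.

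Mir148b-3p stood at 1517, 1244, 1646, 1603 and 1899 RPM in traditional control replicates 1 to 5 and at 1793, 1330, 1873, 2257 and 2232 in traditional DCHP replicates 1 to 5. In PANDORA-seq control replicates 1 to 4 it was 360, 1032, 491 and 608 RPM, all below every traditional library. In PANDORA-seq DCHP replicates 1 to 5 it was 650.0, 626, 1845, 2118 and 2890 RPM. Replicates 1 and 2 of that group lay within the control range and the other 3 lay above it. The PANDORA-seq values rested on 2.5 to 140 reads, where 0.5 comes from reads divided between hairpins.

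Mir152-3p stood at 1247, 1071, 1313, 1326 and 1215 RPM in traditional control replicates 1 to 5 and at 1619, 1207, 1645, 2049 and 2142 in traditional DCHP replicates 1 to 5. All DCHP libraries but replicate 2 lay above the highest control. In PANDORA-seq control replicates 1 to 4 it was 144, 1643, 510 and 587 RPM, and in DCHP replicates 1 to 5 it was 821, 659, 1090, 1412 and 2354. Control replicate 2 lay inside the DCHP range, and the control value of 144 rested on 1 read.

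Mir148a led the 3p arms in every library, while the order of the other members turned with the matching in 9 of 10 traditional and 3 of 9 PANDORA-seq libraries. Per Mir148b-3p read there were 108 ± 20.7 (SD, n = 5) Mir148a-3p reads in traditional control and 103 ± 11.6 (SD, n = 5) in traditional DCHP libraries. Per Mir152-3p read the same groups had 139 ± 31.8 and 113 ± 15.3 (SD, n = 5 each) Mir148a-3p reads. Without control replicate 2 the control ratios were 117 ± 6.64 (SD, n = 4) per Mir148b-3p read and ran from 145 to 167 per Mir152-3p read. The ratio of Mir152-3p to Mir148b-3p was 0.789 ± 0.0867 (SD, n = 5) in traditional control and 0.911 ± 0.0297 (SD, n = 5) in traditional DCHP libraries. With exact matches alone it became 1.05 ± 0.15 (SD, n = 5) and 1.22 ± 0.1 (SD, n = 5), so the mean lay above 1 in both groups, though traditional control 5 stayed below 1 at 0.79. Without traditional control 2 the control ratio was 0.772 with all reads and 1.04 with exact matches. The PANDORA-seq ratios ran from 0.4 to 1.59 with all reads and from 0.5 to 2.25 with exact matches, in libraries with few reads of either member.

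Some reads matched Mir148a and Mir148b equally well. The leading reads of each 3p arm are given as sequenced, with T for U, and capitals mark positions 9, 10 and 20, where the members differ.

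Mir148a-3p, leading read: tcagtgcaCTacagaacttTg
Mir148b-3p, leading read: tcagtgcaTCacagaacttTg
Mir152-3p, leading read: tcagtgcaTGacagaacttGg
Mir148a-3p or Mir148b-3p, first shared read: tcagtgcaCCacagaacttTg
Mir148a-3p or Mir148b-3p, second shared read: tcagtgcaTTacagaacttTg

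The shared reads carry 1 of the 2 bases that separate Mir148a from Mir148b, so each stood 1 mismatch from both and was divided equally. Against Mir148b they read T9C and C10T, and against Mir148a T10C and C9T. Their shares were 13.7% ± 2.68 and 8.12% ± 1.5 (SD, n = 5 each) of the reads assigned to Mir148b-3p in traditional control libraries. In all, reads shared with another hairpin made up 23.4% ± 4.01 (SD, n = 5) of Mir148b-3p in traditional control, 23.5% ± 3.32 (SD, n = 5) in traditional DCHP, 21.4% ± 15.7 (SD, n = 4) in the PANDORA-seq controls, and 21.7% ± 12.7 (SD, n = 5) in the DCHP libraries of that method. For Mir148a-3p that share was 0.22% ± 0.0389 (SD, n = 5) in traditional control, and for Mir152-3p 0.102% ± 0.174 (SD, n = 5). Of the shared reads of Mir148b-3p, 99.4% were shared with Mir148a.

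Relative to the leading Mir148a-3p read, the T10C read had a mean of 0.306% and the C9T read of 0.19% over the traditional libraries. The 17 other transitions of that read at positions inside its ends had means of 0.107% to 0.642%, with a median of 0.304%, so both shared reads lay within that range. Whether they come from Mir148a, from Mir148b or from reading errors was not tested. Exact matches made up 91.0% ± 1.9 (SD, n = 5) of Mir148a-3p reads and 63.9% ± 4.43 (SD, n = 5) of Mir148b-3p reads in traditional control libraries.

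**Figure D2:**
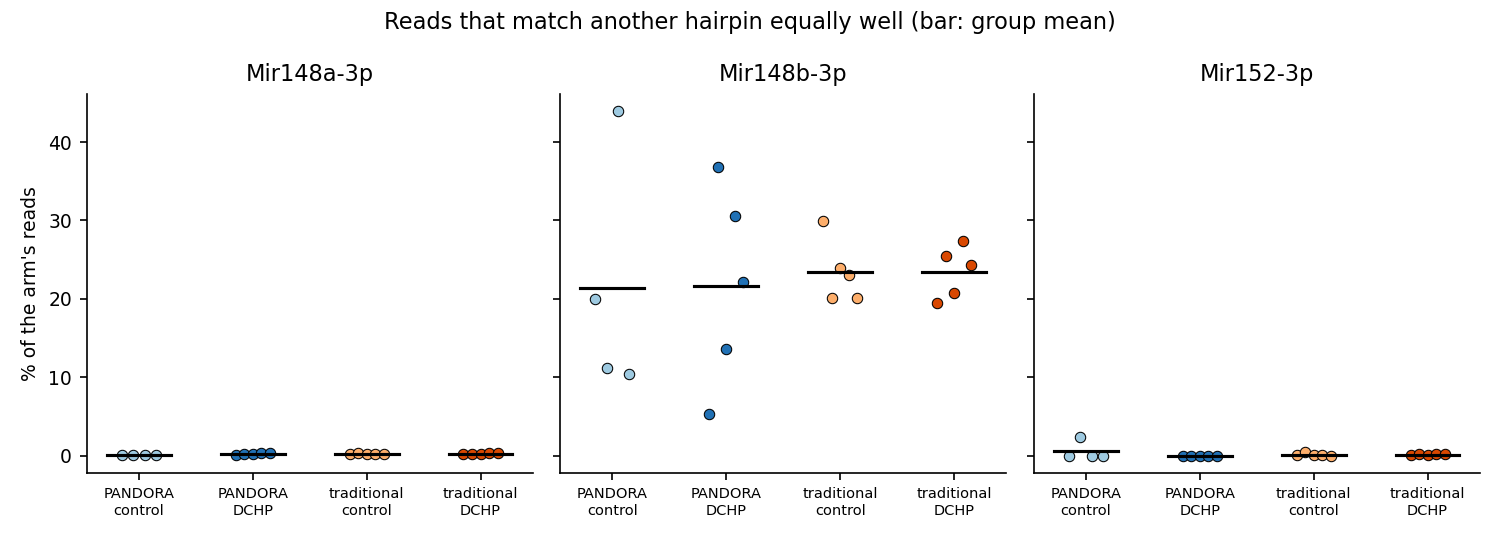
Share of each 3p arm's 20-24 nt reads that matched another hairpin equally well (y axis, %, from 0) in every library of the 4 groups (points), with the group mean (bar). Mir148b-3p stands at a group mean of 21.4% to 23.5%, while no library of the other members lies above 2.33%.

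The 5p arms were minor. Over the traditional libraries the 5p arm gave 0.134% of Mir148a reads (95% exact binomial interval 0.131 to 0.138%), 0.413% of Mir148b reads (0.356 to 0.477%) and 1.45% of Mir152 reads (1.33 to 1.57%). Traditional control 2 held 112 of the 184 Mir148b-5p reads, and without it the shares were 0.127%, 0.21% (0.165 to 0.265%) and 1.41%. Over the PANDORA-seq libraries it gave 0.0731% of Mir148a reads (0.0453 to 0.112%), from 21 reads. These intervals pool reads and leave out the spread between libraries. By library the Mir148a share ran from 0.0655 to 0.204% in traditional and from 0 to 0.192% in PANDORA-seq libraries, so the methods overlapped. Mir148b-5p had 0 of 260 reads in the PANDORA-seq libraries, an interval that reaches 1.41%, and Mir152-5p had 1 read. In traditional control libraries Mir148b-5p stood at 1.16 to 13.7 and Mir152-5p at 16.9 to 27.7 RPM, below the limit of 43.3 RPM that a count of 0 allows in the pooled PANDORA-seq controls, so a difference was not detectable at this depth.

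The members differed in where their reads end. The leading Mir148a-3p read made up 85.9% ± 1.89 (SD, n = 5) of its arm in traditional control and 85.9% ± 1.79 (SD, n = 5) in traditional DCHP libraries, and it is 21 nt long, 1 base shorter than the annotated strand. The annotated 22 nt form had shares of 3.18% ± 0.331 and 2.86% ± 0.326 (SD, n = 5 each) there. In Mir148b-3p the 21 nt form made up 35.1% ± 1.64 (SD, n = 5) of traditional control reads and the 22 nt form 25.8% ± 4.03 (SD, n = 5). In Mir152-3p the annotated 21 nt form ran from 44.7 to 68.1% of traditional control reads, and a 20 nt form followed with 21.1% ± 7.61 (SD, n = 5). The longer and shorter forms follow, with the same positions in capitals.

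Mir148a-3p, annotated length: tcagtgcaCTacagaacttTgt
Mir148b-3p, 22 nt: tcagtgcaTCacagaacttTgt
Mir148b-3p, 23 nt: tcagtgcaTCacagaacttTgtt
Mir152-3p, 20 nt: tcagtgcaTGacagaacttG
Mir152-3p, 22 nt with an added base: tcagtgcaTGacagaacttGgt
Mir152-3p, 22 nt templated: tcagtgcaTGacagaacttGgg

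These forms are shown because they separate templated from added bases. The last base of the 23 nt form of Mir148b-3p is C23T against the hairpin, and that of the longer Mir152-3p form is G22T. A last base that departs from the hairpin was found on 4.4% ± 0.326 (SD, n = 5) of Mir148b-3p and 5.69% ± 0.537 (SD, n = 5) of Mir152-3p reads in traditional control libraries, against 0.366% ± 0.0895 (SD, n = 5) of Mir148a-3p reads. It was T on 3.9% ± 0.284 (SD, n = 5) of Mir148b-3p and 4.3% ± 0.526 (SD, n = 5) of Mir152-3p reads. A U added to the 21 nt form of Mir148a or Mir148b equals the next base of the hairpin, so it cannot be told apart from the annotated 22 nt strand.

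**Figure D3:**
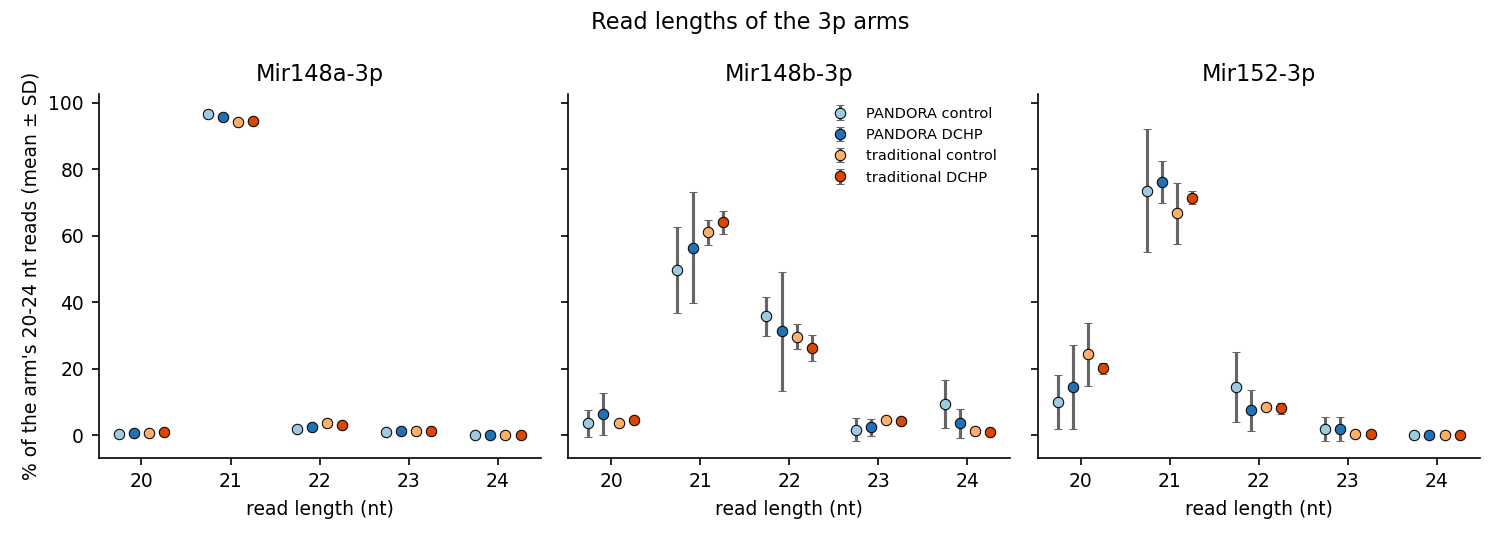
Share of each 3p arm's reads at each length from 20 to 24 nt (y axis, %, group mean with SD as bars) for the 4 groups. Mir148a-3p lies almost wholly at 21 nt, Mir148b-3p is divided between 21 and 22 nt, and Mir152-3p between 20 and 21 nt.

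The 5′ end, which sets the seed, was nearly fixed in the 3p arms. In traditional control libraries 99.9% ± 0.0408 (SD, n = 5) of Mir148a-3p, 99.8% ± 0.11 (SD, n = 5) of Mir148b-3p and 99.5% ± 0.248 (SD, n = 5) of Mir152-3p reads started at the leading position. Mir148a-5p and Mir152-5p varied more. Mir148a-5p started at its leading position in 85.0% ± 3.99 (SD, n = 5) and Mir152-5p in 71.4% ± 10.4 (SD, n = 5) of traditional control reads, the second from 22 to 139 reads a library. Mir148b-5p had 100% at its leading position in 4 traditional controls and 91.1% in replicate 2, from 2 to 112 reads, and 100, 0, 77.8, 75 and 100% in traditional DCHP replicates 1 to 5, from 2 to 18 reads. The shifted 5p reads follow with their own bases 2 to 8 in capitals, since these differ from the annotated seeds.

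Mir148a-5p, leading read: aAAGTTCTgagacactccgac
Mir148a-5p, starting 1 base earlier: cAAAGTTCtgagacactccgac
Mir152-5p, leading read: tAGGTTCTgtgatacactccgac
Mir152-5p, starting 1 base later: aGGTTCTGtgatacactccgac

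The read shown with the earlier start made up 10.3% ± 4.34 (SD, n = 5) of Mir148a-5p reads in traditional control and 9.03% ± 1.72 (SD, n = 5) in traditional DCHP libraries. The read shown with the later start made up 21.5% ± 14.3 (SD, n = 5) of Mir152-5p reads in traditional control and 34.2% ± 9.78 (SD, n = 5) in traditional DCHP libraries, with overlapping ranges of 4.6 to 37.5% and 23.8 to 50.0%. Other reads with the same starts are not in these shares. Mir152-5p was too shallow for the test of end shares.

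The first comparison asked whether DCHP exposure changed the level of the members in sperm. By edgeR's quasi-likelihood test with Benjamini-Hochberg adjustment over all arms, an arm was called at an adjusted p below 0.1 and a change above 2-fold. In PANDORA-seq libraries 2 of 192 arms passed (1.04%), and 0 of the 3 members' arms tested. Mir148b-3p differed most, by a log2 fold change of 1.43 (SE 0.61) in DCHP against control, with an adjusted p of 0.713 and an unadjusted p of 0.0223. Mir152-3p differed by 0.79 (SE 0.60, adjusted p = 0.948) and Mir148a-3p by 0.46 (SE 0.52, adjusted p = 0.948). In the control libraries Mir148b-3p held 2.5 to 14.5 reads and Mir152-3p 1 to 21.5. Both arms met the filter on low counts only with the DCHP libraries, where their mean counts are higher, so their values here are a description. With a library left out Mir152-3p ran from 0.42 (without DCHP 5) to 1.5 (without control 2) and was 0.52 without control 1, and Mir148a-3p ran from 0.29 (without control 1) to 0.83 (without control 3), with none called. With exact matches alone Mir148b-3p differed by 1.31 (SE 0.67, adjusted p = 0.954). The median of the 82 arms of miRNA-like hairpins in this comparison was 0.05.

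In traditional libraries 0 of 528 arms passed (0%), and 0 of the 5 members' arms tested. By edgeR 32 of the 528 arms had an unadjusted p below 0.05, and by DESeq2 46 had one and 0 were called. Mir152-3p differed by a log2 fold change of 0.49 (SE 0.29, adjusted p = 0.798), Mir148b-3p by 0.26 (SE 0.29, adjusted p = 0.898) and Mir148a-3p by 0.15 (SE 0.31, adjusted p = 0.94). The median of the 351 arms of miRNA-like hairpins was 0.21, so Mir152-3p lay 0.28 above it and Mir148a-3p 0.05 below it, though with DESeq2 scaling or per total read Mir148a-3p lay 0.03 and 0.10 above that median. Without the traditional control 2 library Mir152-3p differed by 0.44, Mir148b-3p by 0.19 and Mir148a-3p by -0.012. The sign of Mir148a-3p also turned with TMM (-0.044) or DESeq2 (-0.11) scaling. Without traditional DCHP 4 Mir148a-3p differed by 0.07. Mir148a-5p and Mir152-5p differed by 0.14 (SE 0.38) and 0.20 (SE 0.38), with adjusted p = 0.94 each, and with a library left out they ran from -0.027 to 0.32 and from 0.038 to 0.35 (lowest without DCHP 1 and highest without DCHP 5 in both).

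The difference of the exposure effects between the methods was tested as an interaction by edgeR. It passed in 0 of 180 arms (0%), with 1 at an unadjusted p below 0.05. DESeq2 was not run for it. The interaction was 1.18 (SE 0.61, adjusted p = 0.988) for Mir148b-3p, 0.31 (SE 0.63, adjusted p = 0.988) for Mir152-3p and 0.31 (SE 0.60, adjusted p = 0.988) for Mir148a-3p on the log2 scale. Without traditional control 2 these were 1.26, 0.37 and 0.47. In PANDORA-seq Mir148b-3p and Mir152-3p met the filter on low counts only with the DCHP libraries, so their interactions are a description. With a library left out Mir148a-3p ran from 0.13 (without PANDORA-seq control 1) to 0.68 (without PANDORA-seq control 3) and Mir152-3p from -0.071 (without PANDORA-seq DCHP 5) to 1.02 (without PANDORA-seq control 2), with none called.

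**Figure D4:**
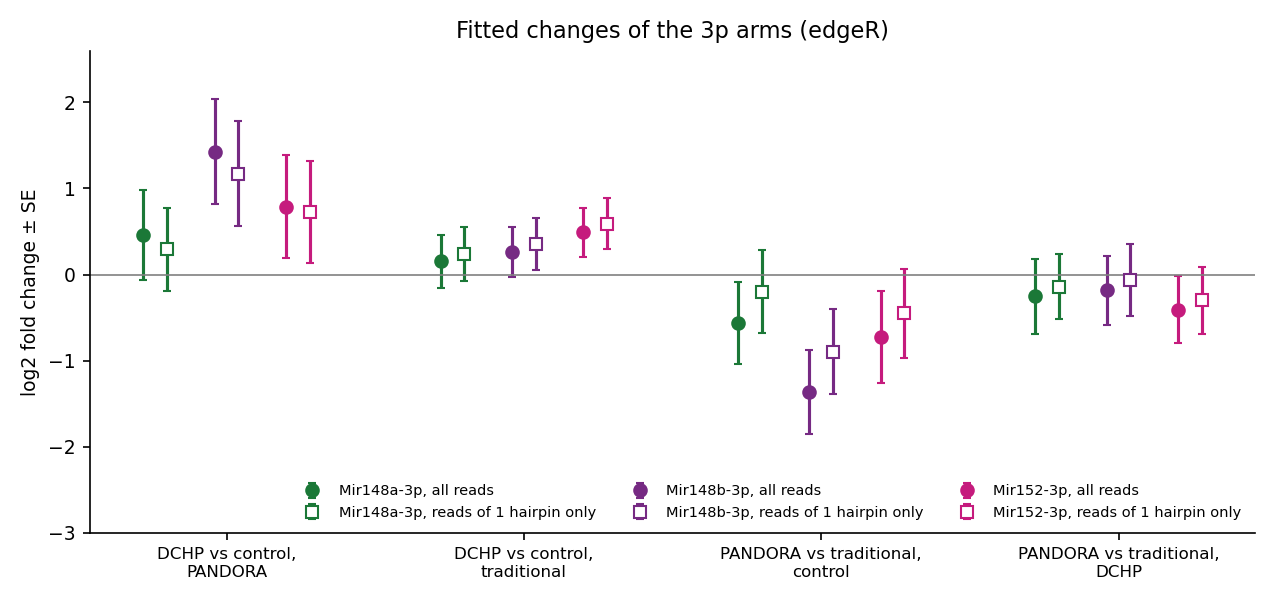
Fitted log2 fold change (y axis, with SE as bars) of the 3p arms in the exposure and method comparisons, with all reads (filled circles) and with reads of 1 hairpin only (open squares). Mir148b-3p in PANDORA-seq against traditional control libraries lies lowest, at -1.37 with all reads and -0.90 with reads of 1 hairpin only. The median of the arms of miRNA-like hairpins in that comparison was -0.16 with all reads and 0.23 with reads of 1 hairpin only.

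The second comparison asked how the method changed the level of the members within the miRNA population. In control sperm 200 of 426 arms were called (46.9%), and 23 of them lower in PANDORA-seq (5.4%). Among the 285 arms of miRNA-like hairpins 74 were called. Of the members' 3 3p arms 1 was called, Mir148b-3p, which was lower in PANDORA-seq by a log2 fold change of -1.37 (SE 0.49, adjusted p = 0.0267, edgeR). Its PANDORA-seq control counts were 2.5, 13.5, 12.5 and 14.5 reads, and those of Mir152-3p were 1, 21.5, 13 and 14. Both arms thus met the filter on low counts only with the traditional libraries, where they are high, so their values here are a description. With reads of 1 hairpin only Mir148b-3p was -0.90 (SE 0.49, adjusted p = 0.222) and was no longer called, and with exact matches -1.25 (SE 0.51, adjusted p = 0.0622). The median of the arms of miRNA-like hairpins was -0.16 with all reads, 0.23 with reads of 1 hairpin only and -0.29 with exact matches. The scale thus moved with the setting, and whether shared reads bear on the level of Mir148b-3p was not tested. With each library left out in turn Mir148b-3p stayed called, at adjusted p of 0.00553 to 0.0965 (edgeR), and without traditional control 2 it differed by -1.44. Mir148a-3p differed by -0.56 (SE 0.48, adjusted p = 0.373) and Mir152-3p by -0.73 (SE 0.53, adjusted p = 0.303). Mir152-3p was called without PANDORA-seq control 2, at -1.45 (adjusted p = 0.0331). Without traditional control 2 Mir148a-3p differed by -0.73 (adjusted p = 0.115) and Mir152-3p by -0.77 (adjusted p = 0.204). Mir148a-3p was -0.93 without PANDORA-seq control 3, and Mir152-3p -0.45 without PANDORA-seq control 1. Mir148a-5p, with 0 to 5 reads in each PANDORA-seq library, and Mir152-5p, with 1 read in all of them, passed the filter on low counts through the traditional libraries alone, so no method comparison is given for the 5p arms.

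In DCHP sperm 179 of 465 arms were called (38.5%), 40 of the 301 arms of miRNA-like hairpins, and 0 of the members' 3 3p arms. Mir148a-3p differed by -0.25 (SE 0.44, adjusted p = 0.674, edgeR), Mir148b-3p by -0.18 (SE 0.40, adjusted p = 0.75) and Mir152-3p by -0.41 (SE 0.39, adjusted p = 0.432). With a library left out Mir148a-3p ran from -0.39 (without PANDORA-seq DCHP 5) to -0.10 (without PANDORA-seq DCHP 1), Mir148b-3p from -0.52 (DCHP 5 of PANDORA-seq) to 0.013 (DCHP 2) and Mir152-3p from -0.80 (DCHP 5) to -0.25 (DCHP 2), with none called.

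The size of the method effect turned on the scale. With TMM, DESeq2 or total reads as the library size, all 3 of the members' 3p arms were called lower in PANDORA-seq in both control and DCHP sperm. So were 227, 277 and 328 of all 426 arms in control and 230, 279 and 369 of all 465 arms in DCHP sperm. With TMM the count in DCHP sperm fell short of a majority. With total reads, 282 of 285 arms of miRNA-like hairpins were called in control and 300 of 301 in DCHP sperm. Per total read, the mean level of Mir148a-3p was 56.4 ± 41.7 (SD, n = 4) reads per 1000000 total reads in the PANDORA-seq controls and 10626 ± 3123 (SD, n = 5) in the traditional ones. Without PANDORA-seq control 3, at 116, the mean of the other 3 was 36.6 ± 15.7 (SD, n = 3). The log2 fold change per total read was -7.56 (SE 0.73, adjusted p = 4.58e-06, edgeR) in control and -6.95 (SE 0.75, adjusted p = 2.32e-06) in DCHP sperm. The medians of the arms of miRNA-like hairpins on that scale were -7.29 and -6.80, so Mir148a-3p lay 0.27 and 0.15 below them. Mir148b-3p lay 1.25 below the median in control sperm on that scale, 1.03 below with TMM and 1.41 below with DESeq2. In control sperm 88.5% of calls were higher in PANDORA-seq per miRNA-like read, against 5.75% per total read, 36.4% with TMM and 29.5% with DESeq2. In DCHP sperm these shares were 96.1%, 5.38%, 38.3% and 33.3%.

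The last comparison concerned the ends of the reads. Each library's share of reads at the leading 5′ end, at the leading 3′ end and with a mismatched last base was compared by a two-sided exact permutation test, over all arms with at least 50 reads in every library, and called at an adjusted p below 0.05. With 4 or 5 libraries a group, 0.00794 is the smallest p it can give. The 3′ end of a read was taken as its last base that matched the hairpin. A read with a mismatched last base thus counted at the base before it. Mir148a-3p was the single member deep enough in the PANDORA-seq libraries.

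Its leading 3′ end, the end of the 21 nt form, stood at 97.0, 95.4, 97.6 and 97.4% in PANDORA-seq control replicates 1 to 4. It stood at 94.9, 93.6, 93.5, 94.3 and 94.5% in traditional control replicates 1 to 5. The groups did not overlap, and the means of 96.9% ± 0.992 (SD, n = 4) and 94.2% ± 0.627 (SD, n = 5) differed (exact permutation p = 0.00794, adjusted p = 0.0155). Among all arms 24 of 39 were called (61.5%). Without traditional control 1, 3 or 4 the adjusted p was 0.0531, at differences of 2.89, 2.53 and 2.75 percentage points.

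In PANDORA-seq DCHP replicates 1 to 5 the same share was 95.8, 95.1, 96.3, 96.0 and 94.9%, and in traditional DCHP replicates 1 to 5 it was 94.1, 94.5, 94.5, 94.8 and 94.4%. The groups again did not overlap, with means of 95.6% ± 0.588 and 94.4% ± 0.244 (SD, n = 5 each, exact permutation p = 0.00794, adjusted p = 0.0166). Among all arms 23 of 44 were called (52.3%). The 3′ ends of many arms differed by method, that of Mir148a-3p among them.

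Its leading 5′ end in control sperm stood at 99.7% ± 0.15 (SD, n = 4) by PANDORA-seq against 99.9% ± 0.0408 (SD, n = 5) by traditional RNA-seq, a difference of -0.13 percentage points (exact permutation p = 0.0238, adjusted p = 0.0332). Among all arms 28 of 39 were called (71.8%). With exact matches the difference was -0.06 points (adjusted p = 0.362), and without PANDORA-seq control 1, 2 or 3 the adjusted p was 0.0542, 0.148 and 0.0529, at -0.15, -0.058 and -0.14 points. Without traditional control 2, 3, 4 or 5 it was 0.0768, 0.0768, 0.0768 and 0.0829, at -0.125 to -0.129 points. With a library fewer the exact test has fewer permutations, and the difference itself shrank clearly without PANDORA-seq control 2 alone. In DCHP sperm the difference was -0.03 points (exact permutation, adjusted p = 0.609), with 25 of 44 arms called (56.8%). It was called there without PANDORA-seq DCHP 4, at -0.06 points (adjusted p = 0.0403). With reads of 18-26 nt the difference was -0.53 points in control (adjusted p = 0.0149) and -0.41 points in DCHP sperm (adjusted p = 0.1), both by exact permutation.

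At the minimum of 50 reads no end share passed the threshold by exposure in the exact permutation test. In PANDORA-seq libraries 0 of 46 arms (0%) and in traditional libraries 0 of 179 arms (0%) were called for each of the 3 measures. With so few libraries a group, the smallest p of this test cannot pass after adjustment unless several arms reach it together. A change in a lone arm, a member's included, could thus not be called, so these counts do not show its absence. At a minimum of 20 reads 26 arms were called for the leading 5′ end in PANDORA-seq libraries. How many arms were tested at that minimum is not given here, so this count has no share beside it. Mir148a-3p was not among the called arms, and the other members were too shallow to be tested. The mismatched last base of Mir148a-3p stood at 0, 0.191, 0.18 and 0.175% in PANDORA-seq control replicates 1 to 4 and at 0.314, 0.321, 0.234, 0.215 and 0.444% in DCHP replicates 1 to 5. These groups did not overlap (exact permutation p = 0.0159, adjusted p = 0.365). The control shares rested on 499.5 to 5012.5 Mir148a-3p reads a library, so few mismatched reads stood behind them. In traditional libraries the shares were 0.366% ± 0.0895 (SD, n = 5) in control and 0.344% ± 0.0649 (SD, n = 5) in DCHP sperm and overlapped. The leading 3′ end of Mir148b-3p stood at 61.1% ± 3.74 in traditional control and 64.0% ± 3.43 in traditional DCHP libraries (SD, n = 5 each, exact permutation, adjusted p = 0.824), and that of Mir152-3p at 71.1% ± 9.41 and 75.9% ± 1.72 (adjusted p = 0.831, exact permutation). With a library left out the differences ran from 1.53 to 4.48 points for Mir148b-3p and from 1.12 to 6.73 points for Mir152-3p. Traditional control 2 stood at 56.5% for Mir152-3p. A mismatched last base stood on 0.54% ± 0.11 and 1.25% ± 0.624 of Mir148a-5p reads (SD, n = 5 each, exact permutation p = 0.0317, adjusted p = 0.656). By method the mismatched last base was called in 0 of 39 arms in control and 0 of 44 in DCHP sperm (0% each). Mir148a-3p had an adjusted p of 0.155 (exact permutation) there in control sperm. The same limit on a lone arm holds for these counts.

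**Figure D5:**
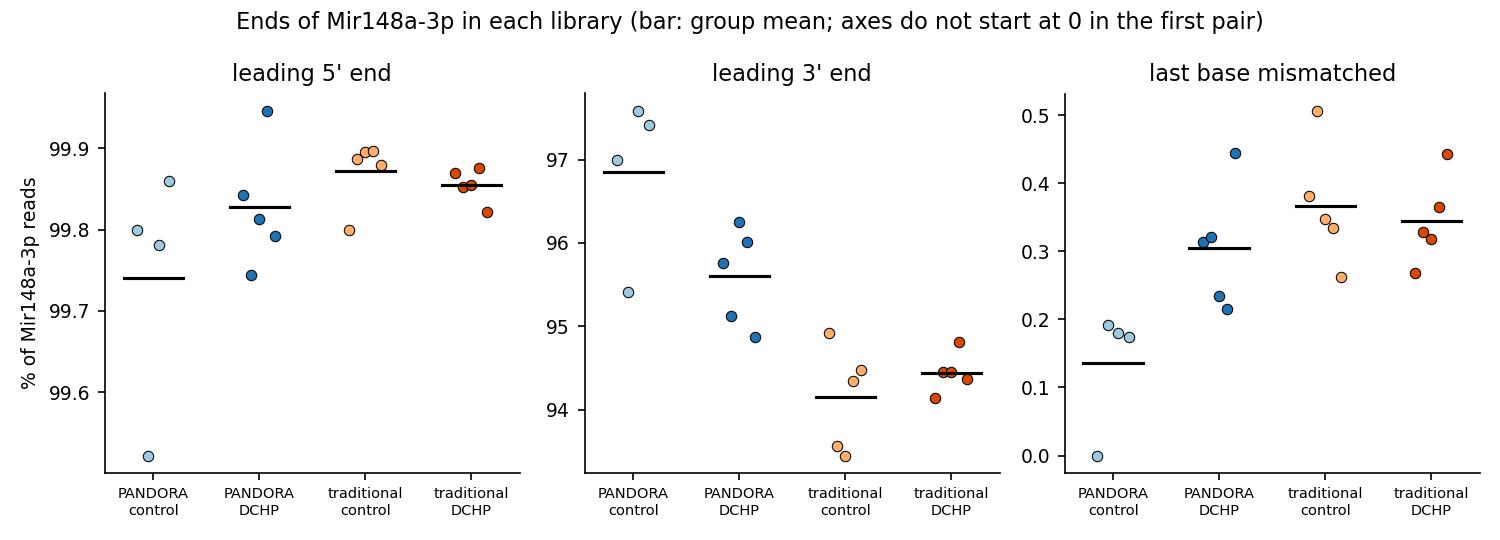
Share of Mir148a-3p reads (y axes, %) at the leading 5′ end, at the leading 3′ end and with a mismatched last base in every library of the 4 groups (points), with the group mean (bar). The first pair of axes do not start at 0, and the 3′ end shares of the PANDORA-seq libraries, 94.9 to 97.6%, lie above those of the traditional libraries of the same exposure.

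The arms most like each member were named by Pearson's r of log2 levels in RPM with a pseudocount of 1, after each method's mean was subtracted, over the 19 libraries and 179 arms other than its own. The values share libraries and depth and are a description. Mir148a-3p was most like Mir878-5p (r = 0.90), Mir200a-5p (r = 0.88) and Mir183-5p (r = 0.78). Mir148b-3p was most like Mir152-3p (r = 0.89), Mir140-3p (r = 0.89) and Mir143-3p (r = 0.87), and Mir152-3p was most like Mir148b-3p, Mir146b-5p (r = 0.87) and Mir200a-3p (r = 0.85). Mir148a-3p had r = 0.65 with Mir148b-3p and 0.50 with Mir152-3p. Reads divided equally between Mir148a and Mir148b count in the levels of both, which bears on the first of these values. Within the PANDORA-seq and the traditional libraries alone, Mir148b-3p and Mir152-3p had r = 0.90 and 0.88. For Mir148b-3p these values were 0.92 and 0.75 with Mir140-3p and 0.94 and 0.63 with Mir143-3p. For Mir148a-3p they were 0.91 and 0.87 with Mir878-5p, 0.88 and 0.93 with Mir200a-5p, and 0.78 and 0.85 with Mir183-5p. For Mir152-3p they were 0.88 and 0.81 with Mir146b-5p and 0.86 and 0.93 with Mir200a-3p. The median r over all arms was 0.12 for Mir148a-3p, -0.19 for Mir148b-3p and -0.31 for Mir152-3p.

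Markers of other cells were summed beside these levels. The miRNAs of epididymal epithelium (Mir200a, Mir200b, Mir200c, Mir141 and Mir429) summed to 6009 to 21160 RPM in traditional control and 17589 to 46899 in traditional DCHP libraries. In PANDORA-seq they summed to 8213 to 11542 in control and 8956 to 37616 RPM in DCHP libraries. The 6 muscle miRNAs summed to 28705 to 83210 and 32321 to 74790 RPM in traditional control and DCHP libraries, and to 9222 to 25673 and 13889 to 86773 in the PANDORA-seq ones. The 5 miRNAs of late male germ cells summed to 765 to 3644 and 3007 to 6440 RPM in traditional control and DCHP libraries, and to 1453 to 3026 and 2634 to 5636 in the PANDORA-seq ones, with Mir449c at a median of 0 in all groups and Mir449a and Mir449b at 0 in both PANDORA-seq ones. The 6 blood miRNAs summed to 668 to 998 RPM in traditional control and 469 to 919 in traditional DCHP libraries. In PANDORA-seq these were 1845 to 2594 and 1059 to 2852 RPM. Mir122 of liver ranged from 19020 to 430728 and 13609 to 212807 RPM in traditional control and DCHP libraries. In PANDORA-seq it ranged from 21167 to 251462 and 11084 to 232993 RPM. Mir143 had the highest median of the muscle list in each group, and Mir486 that of the blood list. In both PANDORA-seq groups Mir133a-1, Mir133a-2, Mir144, Mir142 and Mir223 had a median of 0. The part of these cells in the levels of the family was not tested, and a change in the number of cells of a type cannot be told apart from a change in their RNA.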

How the data were processed

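Small RNA libraries of mouse sperm were deposited as tables of distinct sequences of 15-45 nt with the count of reads of each, made by the authors, whose annotation used SPORTS1.1 (build mm10 per the labels), and these counts are not normalized. Members and lists were chosen with earlier results of these data known. Reads of 20-24 nt were matched to the sense strand of GENCODE M21 hairpins (GRCm38) with at most 1 mismatch, and the best match was kept. Ties were divided equally and rounded for the fits. An arm was set by the midpoint of the read. Library size was the total of 20-24 nt reads on hairpins with at least 50% of their exact reads at 20-24 nt, which is 6940 to 8167744 reads a library. Arms with at least 10 reads in at least 4 libraries of a comparison were tested with edgeR 4.0.16 (R 4.3.3, quasi-likelihood), with DESeq2 1.42.0 as an alternative. Counting error of that total was 0.035 to 1.2% a library. End shares were compared by exact permutation (Python, scipy) for arms with at least 50 reads a library. The fits were tested on simulated data.

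The text names all arms of the 3 members and, for each leading arm, the 3 arms with the highest correlation. Alternatives were other library sizes, TMM, no filter, exact matches, other lengths, reads of 1 hairpin, each library left out and the replicate number as a block. Restricting the tests to miRNA-like hairpins, and the family's share, ratios and 5p shares without traditional control 2 and the total-read level without PANDORA-seq control 3, were added after the data were seen. No pair of libraries in a group was alike within sampling noise (smallest chi-square per degree of freedom 12.9). P-values measure the spread between libraries. Replicates within a group are mice per the study, but sperm RNA of the sires went through both methods, so libraries of different methods may share a mouse, and the method comparisons treat them as separate.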

Additional observations from a re-analysis of the deposited data

Results flagged for a closer look

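Of 44 groups of 4 or 5 libraries tested for a sample far from the others (Dixon's test at 95%), 6 had one, where chance flags about 1 in 20. Traditional control 2 was lowest in Mir148a-3p, at 89928 RPM against 180769 to 202925 in the other controls, and the family made up 9.24% of its miRNA-like reads against 18.4 to 20.6%. In the same library the ratio of Mir148a-3p to Mir152-3p was 84.0 against 145 to 167. In traditional control 5 the ratio of Mir152-3p to Mir148b-3p was 0.64 against 0.798 to 0.861. In PANDORA-seq control 1, 0% of Mir148a-3p reads had a mismatched last base, against 0.175 to 0.191% in the other controls, from 500 reads. In traditional control 1 the leading 5′ end of Mir148a-3p stood at 99.8% (99.80) against 99.88 to 99.90% in the others.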

How the results depend on the processing

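Called arms by exposure in PANDORA-seq numbered 0 with DESeq2, TMM, miRNA-like hairpins only, any-length or total library size, reads of 1 hairpin or the replicate block, 1 with reads of 18-26 nt, and 0 to 2 with a library left out (0 without DCHP 5 or control 1, 1 without DCHP 3 or 4 or control 2 or 3). By method, same-numbered libraries deviated together at r above 0.1 in 3 of 4 pairs in control (r from -0.026 to 0.50) and 4 of 5 in DCHP sperm (0.087 to 0.30). By exposure, where the mice differ, this held in 2 of 4 pairs (PANDORA-seq, r from -0.32 to 0.31) and 0 of 5 (traditional, -0.37 to 0.020). The labels do not give pairs, so the main fits did not use the numbers as such. A pairing between the methods may thus be ignored in them. With the replicate block, called 5′ and 3′ ends by method numbered 0, where 5 pairs cannot pass the threshold. The block gave 201 called arms by method in control and 181 in DCHP, and changed no call of a member's level. Under it the called end shares of Mir148a-3p by method were not called, at adjusted p of 0.102 to 0.181, while the differences were 2.78 and 1.16 points (3′ end) and -0.13 (5′ end). Called arms by method in control numbered 393 with DESeq2, 357 with TMM, 69 in miRNA-like hairpins only, 396 with any-length and 348 with total library size, 650 without the filter and 76 with reads of 1 hairpin. In DCHP these were 418, 373, 33, 441, 390, 640 and 56.

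In the traditional exposure comparison Mir148a-3p was -0.11 with DESeq2, -0.044 with TMM and -0.012 to 0.23 with a library left out (lowest without control 2), Mir148b-3p was -0.064 with DESeq2, and Mir148a-5p was -0.14, -0.094 and -0.027 to 0.32 (lowest without DCHP 1). By method in DCHP, Mir148b-3p ran from -0.52 to 0.013 (without PANDORA-seq DCHP 5 and 2) and was 0.0093 without DCHP 1, and the interaction of Mir152-3p from -0.071 to 1.02 (without PANDORA-seq DCHP 5 and control 2).

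At a minimum of 20 reads 26 arms were called for the 5′ end by exposure in PANDORA-seq. The numbers of arms tested in these alternatives are not given here, so the counts of called ends and last bases have no shares beside them. Called 5′ ends by method were 11 at 200 reads in control, and in DCHP 54 at 20 reads, 9 at 200 and 46 at 18-26 nt. Called 3′ ends in control were 52, 13 and 42, and 0 (without traditional control 1, 3 or 4) to 27 with a library left out, and in DCHP 51, 11 and 50. Called last bases in DCHP were 18, 2 and 22, and 0 to 7 (without PANDORA-seq DCHP 3). With a library left out, traditional exposure differences of Mir148a-5p were -0.69 to 2.20 points (5′ end) and -2.20 to 0.26 (3′ end), lowest and highest without control 1 in turn, and of Mir148a-3p last bases -0.048 to 0.013. The 5′ end difference was also negative without DCHP 2 (-0.28) or 4 (-0.14). With reads of 18-26 nt the 3′ end difference of Mir148a-5p was -4.30 points against -1.39, and with exact matches -0.37. The causes were not tested. Depth limits the PANDORA-seq values of Mir148b, Mir152 and all 5p arms.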
